A study of Mus musculus with 12 samples.

Results

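Primary tumours from mice given dual immune checkpoint blockade together with Dexa at 10 mg were set against tumours from mice given an isotype antibody. The 6 samples were chosen by their titles, 3 for each group, out of 12 in the series. The tissue was hepatocellular carcinoma of mouse, fixed in formalin and embedded in paraffin. The treated mice received an antibody to PD-1 and an antibody to CTLA4 (dICB) plus Dexa, which the labels do not spell out, while the series title speaks of corticosteroid premedication. The labels state the Dexa dose in mg alone, without a schedule, and give no strain, age, tumour cell line or implantation site. An isotype antibody is an immunoglobulin of no relevant target, used as the control for injected antibody. No sample received Dexa alone, so what the antibodies did and what Dexa did cannot be told apart between these groups. The remaining 6 samples, 3 of dICB alone and 3 of dICB with Dexa at 200 mg, entered the shared estimate of spread and are used for reference levels. All 770 endogenous genes of a 784-probe panel, mostly genes of the immune system, were described, and 635 of them had enough counts to be tested.

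Checkpoint antibodies block inhibitory receptors on T cells: PD-1, encoded by Pdcd1, whose ligand PD-L1 is encoded by Cd274, and CTLA-4, which competes with CD28 for the ligands CD80 and CD86. Released T cells make interferon gamma, which induces Cxcl9, MHC genes and Cd274 in tumour and myeloid cells. Corticosteroids bind the glucocorticoid receptor, which induces some genes in leukocytes and represses many inflammatory cytokines. Liver tumours hold many macrophages, which can make nitric oxide through Nos2 or consume arginine through Arg1.

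Summed gene counts were 397145 to 417274 in the dICB + Dexa 10 mg samples and 305347 to 357771 in isotype. A gene was called above background in a sample when its count exceeded the mean of the negative control probes plus 2 SD. That limit was 27.8 to 38.1 counts in the dICB + Dexa 10 mg samples and 26.1 to 32.3 in isotype, and 549 to 601 and 553 to 604 genes lay above it. Background was not subtracted, so fold changes of genes near the limit are understated. The labels do not say that samples of a group came from separate mice, so a p-value here reflects how much these samples vary, which may be technical. Each sample also carries a code, ICI7 or ICI10, whose meaning is not given. All samples compared here carry ICI7 except replicate 2 of dICB + Dexa 10 mg, which carries ICI10.

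That replicate 2 stood apart. Its log2 normalised counts correlated across genes with those of replicates 1 and 3 at 0.942 and 0.926, whereas replicates 1 and 3 correlated at 0.979 and the isotype samples at 0.972 to 0.987. It lay more than 2-fold above both other samples of its group in 19 genes and more than 2-fold below both in 48. Replicate 3 did so in 3 and 1 genes and replicate 1 in none. The comparison with isotype is therefore given with all 3 samples and without replicate 2. Since replicate 2 is also the only ICI10 sample, the sample and the code cannot be told apart.

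No gene of the 635 passed edgeR's quasi-likelihood test at an adjusted p of 0.05, which is 0% called, and the smallest adjusted p was 0.34. At an unadjusted p under 0.05 there were 53 genes, 8.35% of those tested, of which 38 (5.98%) were higher in dICB + Dexa 10 mg and 15 (2.36%) lower, against 31.75 expected by chance alone. DESeq2 passed 4 genes, all higher in dICB + Dexa 10 mg: Nos2, Ccl17, Chil3 and Ccl9. In 83 genes (13.1%) the 3 samples of one group all lay beyond the 3 of the other, 51 (8.03%) on the higher side and 32 (5.04%) on the lower. Without replicate 2 no gene passed in edgeR or in DESeq2, 36 genes (5.67%) had an unadjusted p under 0.05, 25 (3.94%) higher and 11 (1.73%) lower, and 191 (30.1%) did not overlap, with 2 samples against 3. Both fits shared 21 genes at an unadjusted p under 0.05 with the same direction. Without dICB replicate 1 the count under 0.05 was 64. In edgeR's fits of the compared samples alone it was 56 with replicate 2 and 72 without it. The fall from 53 to 36 thus depends on which other samples enter the fit. The split between higher and lower depends on scaling. With housekeeping gene factors it was 69 higher and 2 lower, and with positive control factors 79 and 0, because the median log2 fold change of all genes moved to 0.23 and 0.25 from -0.03. Nothing below is a called difference in edgeR, so genes are given by their values, and "higher" or "lower" describes those values. Counts of list members under 0.05 are to be read against 8.35% of all genes, and without replicate 2 against 5.67%.

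Of the 6 higher genes of smallest p without overlap, 4 encode CC chemokines that lie in 2 pairs of near neighbours, so their promoters are shown. Ccl17 and Ccl22 encode ligands of the receptor Ccr4 and lie on chromosome 8 of the mouse build GRCm38.p6. Ccl9 and Ccl6 encode ligands of Ccr1 and lie on chromosome 11. Each sequence is RefSeq's, on the strand of the gene, and runs 250 bases before to 50 after the start of the gene. The windows are chr8:94810203-94810502 (plus strand) for Ccl17, chr8:94745434-94745733 (plus strand) for Ccl22, chr11:83578587-83578886 (minus strand) for Ccl9 and chr11:83593038-83593337 (minus strand) for Ccl6. In Ccl17 and Ccl22 capitals mark matches to 3 motifs searched on both strands, none of which overlapped another. In Ccl9 and Ccl6, which held no match, capitals mark the most alike ungapped window of 60 bases.
Ccl17: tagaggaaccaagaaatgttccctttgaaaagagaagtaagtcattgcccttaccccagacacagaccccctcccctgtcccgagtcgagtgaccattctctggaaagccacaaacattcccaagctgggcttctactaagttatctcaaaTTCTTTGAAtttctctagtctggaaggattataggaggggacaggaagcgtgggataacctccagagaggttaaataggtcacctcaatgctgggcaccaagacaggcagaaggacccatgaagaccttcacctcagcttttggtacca
Ccl22: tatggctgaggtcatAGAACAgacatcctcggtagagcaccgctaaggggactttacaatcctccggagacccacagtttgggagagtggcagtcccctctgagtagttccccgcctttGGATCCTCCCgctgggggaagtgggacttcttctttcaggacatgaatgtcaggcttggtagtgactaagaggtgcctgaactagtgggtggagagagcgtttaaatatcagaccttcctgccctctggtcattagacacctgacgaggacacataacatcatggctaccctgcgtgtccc
Ccl9: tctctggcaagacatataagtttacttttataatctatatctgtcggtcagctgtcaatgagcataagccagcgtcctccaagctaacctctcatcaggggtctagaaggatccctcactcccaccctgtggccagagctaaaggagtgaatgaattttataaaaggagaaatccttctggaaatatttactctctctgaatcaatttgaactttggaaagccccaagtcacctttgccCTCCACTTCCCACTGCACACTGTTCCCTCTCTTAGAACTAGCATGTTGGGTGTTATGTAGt
Ccl6: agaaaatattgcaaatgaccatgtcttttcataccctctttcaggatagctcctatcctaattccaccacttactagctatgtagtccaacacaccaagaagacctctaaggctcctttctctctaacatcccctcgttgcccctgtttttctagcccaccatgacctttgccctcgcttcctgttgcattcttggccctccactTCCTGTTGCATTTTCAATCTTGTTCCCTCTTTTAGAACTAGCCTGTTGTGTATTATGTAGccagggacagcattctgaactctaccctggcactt
The motifs were GGGA, any 4 bases and CC for NF-kB, present in 20.7% of 32851 promoters of the same length, TTCNNNGAA for STAT factors, present in 8.3%, and AGAACA, part of the site of the glucocorticoid receptor, present in 19%. Ccl17 held the STAT match TTCTTTGAA at base -99. Ccl22 held AGAACA at -235 and, read on the minus strand, the NF-kB match GGATCCTCCC at -131. The marked windows of Ccl9 and Ccl6 were identical at 41 of 60 bases (68.3%), and the most alike window of Ccl17 and Ccl22 at 28 of 60 (46.7%). These matches describe the letters only.

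Ccl17 had 105, 291 and 100.1 normalised counts in dICB + Dexa 10 mg replicates 1, 2 and 3, against 42.2, 57.7 and 47.1 in the isotype samples. All 3 treated samples lay above all isotype samples and replicate 2 was far the highest, so the log2 fold change of 1.76 ± 0.45 (± SE) was 1.05 ± 0.36 without it. Its adjusted p was 0.34, and ran from 0.0221 to 0.953 over the alternatives tried. Ccl22 had 92.6, 120.1 and 62.7 counts in dICB + Dexa 10 mg and 32.8, 45.1 and 43.7 in isotype, a log2 fold change of 1.18 ± 0.31 (0.92 without replicate 2). The Ccr4 gene itself was above background in none of the 6 samples.

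Ccl9 stood at 1290.2, 1221 and 844 counts in dICB + Dexa 10 mg and at 590.3, 331 and 324 in isotype. The groups did not overlap, replicate 2 was not extreme, and the log2 fold change was 1.43 ± 0.37 with it and 1.35 ± 0.42 without. Its neighbour Ccl6 had 447, 277 and 291 counts in dICB + Dexa 10 mg and 216, 119.6 and 126 in isotype (1.14 ± 0.32, and 1.25 without replicate 2). In both genes isotype replicate 1 was the highest of its group. Ccl11, the eosinophil attractant eotaxin, had 253, 130.3 and 105 counts in dICB + Dexa 10 mg and 84.5, 75.5 and 60.5 in isotype. Its log2 fold change was 1.14 ± 0.33, 1.27 without replicate 2 and 0.70 without replicate 1, the highest sample.

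Of 20 CC chemokines tested, 17 had a log2 fold change above 0 and 3 below, with a median of 0.31 both with and without replicate 2, where all genes had -0.03 and -0.04. At an unadjusted p under 0.05 there were 5 higher (Ccl6, Ccl9, Ccl11, Ccl17 and Ccl22) and 1 lower, Ccl21a, which makes 30%, against 8.35% of all genes. Without replicate 2 the same 5 stayed under 0.05 and Ccl21a did not. Ccl21a, a Ccr7 ligand of lymphoid stroma and lymphatic vessels, had 22.9, 17.7 and 20 counts in dICB + Dexa 10 mg, all under the background limit, against 28.2, 45.1 and 59.4 in isotype. The groups did not overlap, and the log2 fold change was -1.12 ± 0.40 (-1.05 without replicate 2). The Ccl21a probe may also take up near-identical gene copies.

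Among 15 CXC and other chemokines, 7 were above 0 and 8 below, with a median of -0.06 (-0.02 without replicate 2) that was 0.20 and 0.24 with housekeeping gene and positive control factors. Cxcl9, a Cxcr3 ligand induced by interferon gamma, held 2459, 2544 and 2418 counts in dICB + Dexa 10 mg and 1826, 1458 and 1559 in isotype. The treated samples lay close together and above all isotype samples (0.62 ± 0.20, and 0.57 without replicate 2). Ppbp, whose product is released by platelets, had 42.2, 39.1 and 29.6 counts in dICB + Dexa 10 mg and 57.2, 43 and 61.7 in isotype (-0.55 ± 0.22, and -0.61 without replicate 2). Treated replicate 3 was under the background limit for Ppbp. Cxcl15 had 269.6, 148 and 407 counts in dICB + Dexa 10 mg and 334, 648 and 619.9 in isotype, overlapping at isotype replicate 1 (-0.96 ± 0.42, and -0.69 without replicate 2). Of 11 chemokine receptors tested none had an unadjusted p under 0.05 in either fit, and the median was 0.02 (-0.03 without replicate 2).

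**Figure D1:**
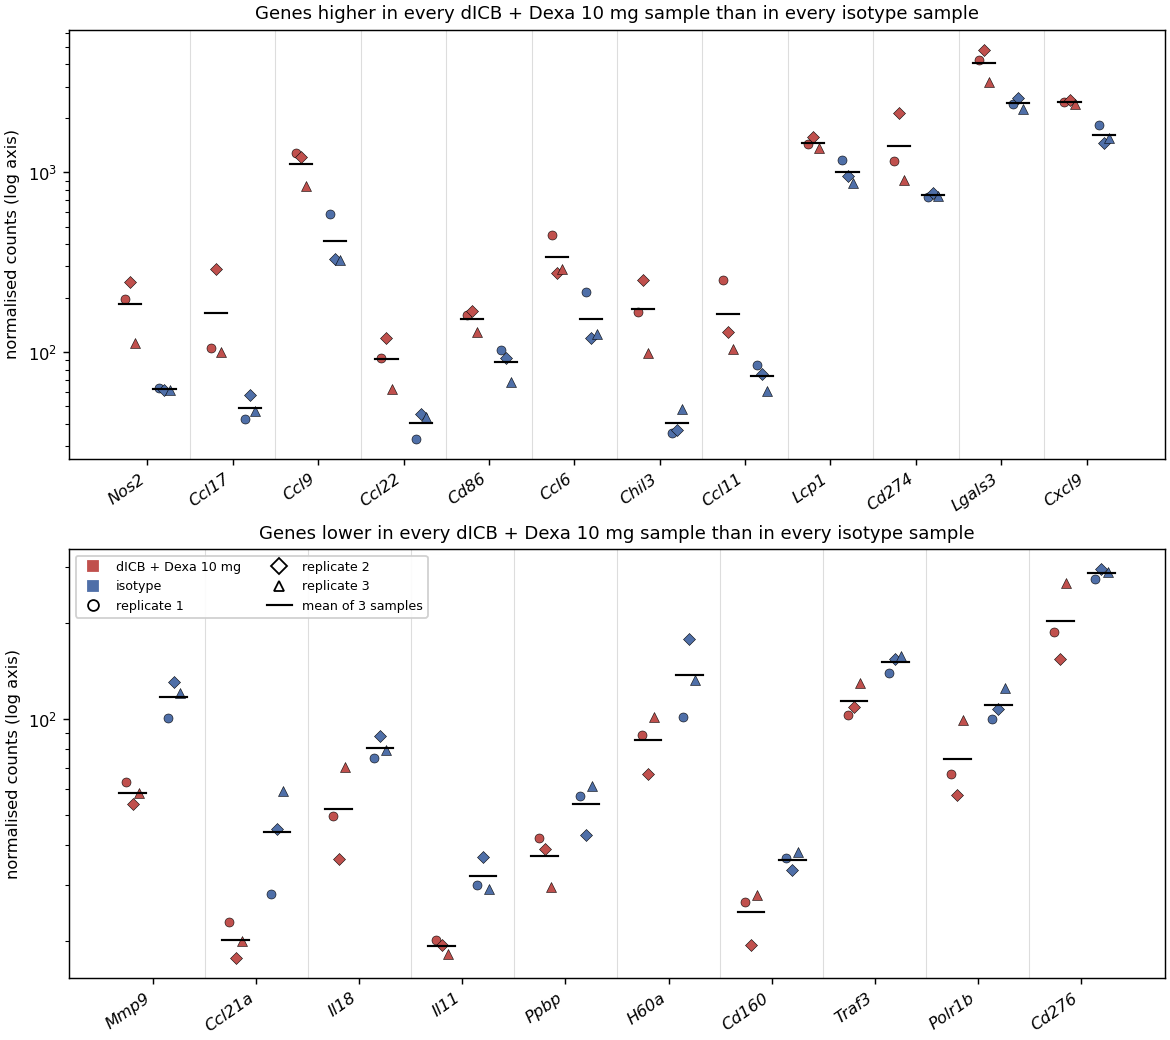
Normalised counts on a log axis of the 12 higher genes of smallest p and 10 of the 12 lower among those whose groups did not overlap, with the dICB + Dexa 10 mg samples (red) left of isotype (blue), symbols for replicates and lines for means of 3. Chil3 stands at 98.4 to 252 in dICB + Dexa 10 mg and 35.7 to 48.2 in isotype, and replicate 2 is the highest treated sample for Ccl17 and Cd274.

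Nos2 and Chil3, from the list of polarisation enzymes and lectins, also had small p-values. Nos2, the inducible nitric oxide synthase, had the smallest p of all, with 197, 245 and 112 counts in dICB + Dexa 10 mg against 62.9, 61.9 and 61.7 in isotype. The isotype samples were nearly equal and every treated sample lay above them; the log2 fold change was 1.57 ± 0.37 (1.30 ± 0.39 without replicate 2), with an adjusted p of 0.34 and a range of 0.0221 to 0.953 over the alternatives. Chil3, the chitinase-like lectin Ym1 that alternatively activated mouse macrophages secrete, had the largest difference of the named non-overlapping genes. It stood at 168, 252 and 98.4 counts in dICB + Dexa 10 mg and 35.7, 36.7 and 48.2 in isotype (2.10 ± 0.60, and 1.71 ± 0.64 without replicate 2). Genes used as marks of classical activation (Nos2) and of alternative activation (Chil3) were thus both at higher values in the same 3 samples.

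Arg1, which hepatocytes as well as macrophages express, had 508, 870.5 and 375 counts in dICB + Dexa 10 mg and 288, 350.3 and 453 in isotype. Replicate 3 of the treated group lay within the isotype range, and the log2 fold change of 0.68 ± 0.31 was 0.26 without replicate 2. The fungal pattern receptor Clec4n (dectin-2) had 566, 426 and 381 counts in dICB + Dexa 10 mg and 385, 228 and 206 in isotype, overlapping at isotype replicate 1 (0.74 ± 0.34, and 0.78 without replicate 2). All 5 tested genes of the list of polarisation enzymes and lectins were above 0, with a median of 0.74 (0.78 without replicate 2). At an unadjusted p under 0.05 stood 4 of them, Nos2, Chil3, Arg1 and Clec4n (80%, against 8.35% of all genes), and without replicate 2 only Nos2 and Chil3 (5.67% of all genes).

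Of 22 macrophage genes, all tested, 19 were above 0 and 3 below, with a median of 0.34 (0.36 without replicate 2). At an unadjusted p under 0.05 stood 5 (22.7%, against 8.35% of all genes), all higher: Cd68, Cd84, Clec7a, Marco and Siglec1. Without replicate 2, where 5.67% of all genes were under 0.05, there were 4, Clec7a, Cybb, Fcgr2b and Fcgr3, so only Clec7a was shared. Clec7a, the beta-glucan receptor dectin-1, had 757, 497 and 639 counts in dICB + Dexa 10 mg and 381, 445 and 364 in isotype, with no overlap (0.67 ± 0.26, and 0.80 without replicate 2). Cd68, a lysosomal protein of macrophages, had 713, 716 and 536 counts in dICB + Dexa 10 mg and 557, 413 and 384 in isotype (0.54 ± 0.20, and 0.45 without replicate 2). The scavenger receptor Marco had 52.3, 122 and 43.5 counts in dICB + Dexa 10 mg and 40.4, 26.2 and 26.9 in isotype. The value of replicate 2 carried much of that difference, 1.21 ± 0.50 with it and 0.59 without. Isotype replicates 2 and 3 were under the background limit for Marco, and its log2 fold change ran from 0.59 to 3.47 over the alternatives.

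Siglec1, a sialic acid receptor of resident macrophages, was likewise highest in replicate 2, with 69.7, 147 and 70.5 counts in dICB + Dexa 10 mg and 69.4, 47.2 and 47.1 in isotype (0.81 ± 0.32, and 0.34 without it). Cd84, a self-binding receptor of the SLAM family, had 381, 297 and 246 counts in dICB + Dexa 10 mg and 259, 166 and 175 in isotype (0.62 ± 0.26, and 0.64 without replicate 2). Other macrophage genes were low in replicate 2. The NADPH oxidase subunit Cybb had 828, 278 and 538 counts in dICB + Dexa 10 mg and 429.8, 364 and 298 in isotype (0.59 ± 0.38, and 0.89 without replicate 2). The activating Fc receptor Fcgr3 had 223, 34.4 and 199 counts in dICB + Dexa 10 mg and 154, 147 and 147 in isotype, a log2 fold change of 0.03 ± 0.47 that was 0.48 without replicate 2. The inhibitory Fc receptor Fcgr2b had 0.40 ± 0.24 and 0.57.

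The summed level of the 22 macrophage genes was 16288 to 23946 in the dICB + Dexa 10 mg samples and 8647 to 18587 in isotype. It overlapped because isotype replicate 1 had the highest sum of its group; without that sample the median of the list was 0.61, and over the other leave-one-out fits it ran from 0.17 to 0.38. Lyz2, macrophage lysozyme, made the largest part of that sum, with 16082, 11586 and 10058 counts in dICB + Dexa 10 mg and 12369.8, 3891 and 5296 in isotype (0.81 ± 0.44, and 0.85 without replicate 2). Emr1, which encodes the macrophage antigen F4/80, had 403, 288 and 332 counts in dICB + Dexa 10 mg and 384, 228 and 225 in isotype (0.29 ± 0.30, and 0.38 without replicate 2). The fractalkine receptor Cx3cr1 ran the other way, with 69.7, 68.9 and 77.5 counts in dICB + Dexa 10 mg and 130.4, 75.5 and 108 in isotype (-0.54 ± 0.25; -0.53 without replicate 2 and -0.34 without isotype replicate 1). In bulk tissue such as this, more macrophages and more RNA of these genes per macrophage cannot be told apart, and the part of macrophage number in the Nos2, Chil3 and chemokine values was not tested.

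Genes that link myeloid cells to T cells followed. Cd86, the costimulatory ligand of CD28 and CTLA-4, had 161, 169 and 129 counts in dICB + Dexa 10 mg and 103, 92.3 and 68.4 in isotype, with no overlap and a log2 fold change of 0.79 ± 0.22 (0.70 ± 0.23 without replicate 2). Cd274, which encodes PD-L1, had 1158, 2128 and 905 counts in dICB + Dexa 10 mg against 729, 773 and 739 in isotype. All 3 treated samples were above isotype, but replicate 2 was far above the other treated samples, and the log2 fold change of 0.90 ± 0.27 was 0.45 ± 0.19 without it. Lgals3, the lectin galectin-3, had 4225, 4817 and 3184 counts in dICB + Dexa 10 mg and 2412, 2604 and 2252 in isotype (0.75 ± 0.23, and 0.59 without replicate 2). These 3 genes were the members of the checkpoint and costimulation list, 28 tested, with an unadjusted p under 0.05. Their share of 10.7% was near the 8.35% of all genes. The same 3 were under 0.05 without replicate 2, where 5.67% of all genes were. The list as a whole was split, 15 above 0 and 13 below, with a median of 0.03 (-0.04 without replicate 2).

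The genes of the receptors that the antibodies bind overlapped between the groups. Pdcd1 had 226, 480.4 and 268 counts in dICB + Dexa 10 mg and 390.4, 255 and 349.7 in isotype, and its log2 fold change of -0.03 ± 0.36 was -0.45 without replicate 2. Ctla4 had 39.4, 58.7 and 40.1 counts in dICB + Dexa 10 mg and 59.1, 54.5 and 58.3 in isotype (-0.32 ± 0.25, and -0.55 without replicate 2). Cd276, which encodes B7-H3, was lower in every treated sample, with 187, 154 and 266 counts in dICB + Dexa 10 mg and 274, 295 and 289 in isotype (-0.50 ± 0.25, and -0.36 without replicate 2).

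Of 11 dendritic cell genes tested, 8 were above 0 and 3 below, with a median of 0.06 (0.24 without replicate 2). The 3 at an unadjusted p under 0.05 were Ccl17, Ccl22 and Itgax (27.3%, against 8.35% of all genes), and without replicate 2 only Ccl17 and Ccl22. Ccl17 and Ccl22 are also counted among the CC chemokines, and Itgax among the integrins, so these lists are not independent. Itgax, the integrin CD11c of dendritic cells and some macrophages, had 158, 195 and 154 counts in dICB + Dexa 10 mg and 105, 96.5 and 98.6 in isotype, with no overlap (0.75 ± 0.27, and 0.62 without replicate 2). Its integrin partner Itgb2, found on all leukocytes, had 577, 587 and 401 counts in dICB + Dexa 10 mg and 421, 236 and 225 in isotype (0.83 ± 0.31, and 0.72 without replicate 2). Lcp1, the actin-bundling L-plastin of leukocytes, had 1431, 1585 and 1368 counts in dICB + Dexa 10 mg and 1177, 950.2 and 871 in isotype, with no overlap (0.55 ± 0.16, and 0.47 without replicate 2). Of the 15 dendritic cell genes on the panel, 5 were above background in none of the 6 samples, among them Xcr1 and Flt3.

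Antigen presentation by MHC class II leaned one way. Of 11 genes tested 10 were above 0 and 1 below, with a median of 0.30 (0.33 without replicate 2). H2-Ab1, a class II beta chain, had 8703, 7753 and 6596 counts in dICB + Dexa 10 mg and 6094, 4981 and 5283 in isotype, with no overlap (0.49 ± 0.23, and 0.47 without replicate 2). H2-Eb1 had 4429, 5244 and 3097 counts in dICB + Dexa 10 mg and 3588, 2601 and 2505 in isotype (0.55 ± 0.25, and 0.36 without replicate 2). These were the 2 class II genes at an unadjusted p under 0.05 (18.2%, against 8.35% of all genes). Without replicate 2 the only class II gene under 0.05 was Ctss. Ctss, the protease cathepsin S that trims the invariant chain, had 6586, 1759.6 and 4077 counts in dICB + Dexa 10 mg and 2809, 2242 and 2141 in isotype. Replicate 2 lay below every isotype sample there, so the log2 fold change of 0.79 ± 0.40 was 1.14 ± 0.33 without it, and 0.27 without replicate 1, the highest sample.

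The values of interferon response genes moved with replicate 2. Of 33 tested, 25 were above 0 and 8 below, with a median of 0.20; without replicate 2 it was 15 and 18, with a median of -0.01. At an unadjusted p under 0.05 stood 5 (15.2%, against 8.35% of all genes), among them Cd274, Cxcl9, Irf7 and Gbp5. Without replicate 2 only Cd274 and Cxcl9 were under 0.05, as were 5.67% of all genes. Irf7, which drives type I interferon genes, had 172, 312 and 206 counts in dICB + Dexa 10 mg and 139, 121 and 149 in isotype (0.76 ± 0.27, and 0.45 without replicate 2). Gbp5, a guanylate-binding protein induced by interferon gamma, had 896, 986 and 746 counts in dICB + Dexa 10 mg and 648, 643 and 637 in isotype (0.45 ± 0.17, and 0.33 without replicate 2). For Irf7 and Gbp5 no treated sample lay within the isotype range, though replicates 1 and 3 were nearer to it.

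Of 13 MHC class I genes tested 11 were above 0 and 2 below, with a median of 0.16, and without replicate 2 it was 7 and 6, with 0.04. The 2 at an unadjusted p under 0.05 (15.4%, against 8.35% of all genes) were H2-K1 and H2-T23, and without replicate 2 there was none. H2-K1, a classical class I heavy chain, had 1092, 1316 and 844 counts in dICB + Dexa 10 mg and 869.95, 613 and 537 in isotype, overlapping at isotype replicate 1 (0.69 ± 0.23, and 0.51 without replicate 2). The nonclassical H2-T23 (Qa-1) had 3529.5, 5739 and 3424 counts in dICB + Dexa 10 mg and 2944, 2973 and 2958 in isotype (0.52 ± 0.20, and 0.21 without replicate 2). Probes for single H2 genes may take up related family members.

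Of 20 T cell genes tested, 4 were above 0 and 16 below, with a median of -0.14 (-0.12 without replicate 2) that was 0.12 with housekeeping gene factors and 0.14 with positive control factors. None had an unadjusted p under 0.05 in either fit. The summed level of the list was 2272 to 2814 in the dICB + Dexa 10 mg samples and 2675 to 3372 in isotype. Cd8a, a coreceptor chain of cytotoxic T cells, had 113, 41 and 119 counts in dICB + Dexa 10 mg and 134, 88.1 and 97.5 in isotype, and replicate 2 was the lowest of the 6 (-0.23 ± 0.40, and 0.10 without it). Tcf7, the transcription factor of naive and stem-like T cells, had 399, 101 and 585 counts in dICB + Dexa 10 mg and 473, 650.3 and 612 in isotype. Replicate 2 was again far the lowest, with a log2 fold change of -0.68 ± 0.45 that was -0.26 without it.

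Cytotoxic effector genes, 10 tested, had 5 above 0 and 5 below. An unadjusted p under 0.05 was found for 3 (30%, against 8.35% of all genes), and for none without replicate 2. Gzmb, a granzyme of cytotoxic cells, had 91.7, 161 and 77.5 counts in dICB + Dexa 10 mg and 59.1, 50.3 and 62.8 in isotype, with no overlap, and its 0.94 ± 0.33 was 0.54 without replicate 2. Gzma had 90.8, 196 and 60.1 counts in dICB + Dexa 10 mg and 65.7, 56.6 and 74 in isotype, where replicate 3 lay within the isotype range (0.82 ± 0.36, and 0.19 without replicate 2). Cd160, a receptor of natural killer and some T cells, was the lower one of the 3. It had 26.6, 19.6 and 27.9 counts in dICB + Dexa 10 mg and 36.6, 33.6 and 38.1 in isotype, close to the background limit (-0.54 ± 0.24, and -0.43 without replicate 2). Replicates 2 and 3 of the treated group were under that limit for Cd160. Of 11 natural killer cell genes tested, only Slamf7, a receptor shared with macrophages and plasma cells, had an unadjusted p under 0.05, in both fits. It had 371, 198 and 199 counts in dICB + Dexa 10 mg and 175, 89.2 and 122 in isotype (0.99 ± 0.36, and 1.13 without replicate 2). B cell genes were scarce, with 12 of 15 above background in none of the 6 samples, and no tested B cell, neutrophil, mast cell or regulatory and helper T cell gene had an unadjusted p under 0.05 in either fit.

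On the lower side the smallest p belonged to Mmp9, the gelatinase of neutrophils and macrophages. It had 63.3, 54 and 58.3 counts in dICB + Dexa 10 mg against 100.4, 130.1 and 119.9 in isotype. The treated samples, replicate 2 included, lay close together and below every isotype sample, with a log2 fold change of -0.99 ± 0.29 (-0.96 ± 0.34 without replicate 2). Its adjusted p was 0.349, with a range of 0.122 to 0.953 over the alternatives.

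Other genes had lower values in each treated sample than in any isotype sample. Il11, an interleukin of the IL-6 family, had 20.2, 19.6 and 18.3 counts in dICB + Dexa 10 mg, all under the background limit. In isotype it had 30, 36.7 and 29.1, and isotype replicate 3 was also under the limit. The log2 fold change of Il11 was -0.72 ± 0.28, and -0.75 without replicate 2. Il18, a cytokine released by inflammasome cleavage, had 49.5, 36.3 and 70.5 counts in dICB + Dexa 10 mg and 75.1, 88.1 and 79.6 in isotype (-0.63 ± 0.24, and -0.46 without replicate 2). H60a, a stress ligand of the killer receptor NKG2D, had 88.9, 67 and 101 counts in dICB + Dexa 10 mg and 101, 177 and 132 in isotype. Replicate 3 and isotype replicate 1 were nearly equal, and its log2 fold change of -0.67 ± 0.30 was -0.55 without replicate 2 and -0.44 without isotype replicate 2. The signalling adaptor Traf3 (-0.40 ± 0.19) and the RNA polymerase I subunit Polr1b (-0.56 ± 0.27) were also lower without overlap, at -0.40 and -0.43 without replicate 2.

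Other genes had a smaller p once replicate 2 was left out. Ebi3, a subunit shared by the cytokines IL-27 and IL-35, had 67.9, 33.5 and 56.6 counts in dICB + Dexa 10 mg and 37.5, 36.7 and 26.9 in isotype, and 0.64 ± 0.26 became 0.86 ± 0.21. Trp53, the tumour suppressor p53, had 155, 357 and 204 counts in dICB + Dexa 10 mg and 268, 285 and 346 in isotype, and its log2 fold change of -0.33 ± 0.27 was -0.77 ± 0.19 without replicate 2. The pericyte proteoglycan Cspg4 had 76.1, 199 and 99.3 counts in dICB + Dexa 10 mg and 196, 129 and 166 in isotype, with -0.39 ± 0.36 and -0.93 ± 0.31. Il7, a survival factor of T cells, had -0.45 ± 0.26 and -0.73 ± 0.26, and Birc5, the apoptosis inhibitor survivin of dividing cells, -0.39 ± 0.24 and -0.61 ± 0.23. In Trp53, Cspg4, Il7 and Birc5 replicates 1 and 3 were below every isotype sample while replicate 2 was not. Without replicate 2 the lowest adjusted p of these 5 genes was 0.627 in edgeR's fit of all other samples, 0.206 for Ebi3 and Cspg4 in edgeR's fit of the 5 samples alone, and 0.126 for Trp53 in DESeq2.

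Apoptosis genes, 14 tested, had 4 above 0 and 10 below, with a median of -0.26 (-0.31 without replicate 2), but 0.01 with either control scaling. Bax, a pore former of mitochondria, had 274, 177 and 260.4 counts in dICB + Dexa 10 mg and 266, 365 and 349.7 in isotype (-0.46 ± 0.21, and -0.31 without replicate 2). Fadd, the adaptor of death receptors, had 58.7, 53.1 and 78.4 counts in dICB + Dexa 10 mg and 73.2, 105 and 91.9 in isotype (-0.50 ± 0.21, and -0.42 without replicate 2). These were the 2 at an unadjusted p under 0.05 (14.3%, against 8.35% of all genes). Without replicate 2 the 2 were Trp53 and Birc5, where 5.67% of all genes were under 0.05. NF-kB and Toll-like receptor genes, 32 tested, had 10 above 0 and 22 below, with a median of -0.16 (-0.13 without replicate 2; 0.11 and 0.13 with housekeeping and positive control factors) and none with an unadjusted p under 0.05 in either fit.

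Complement genes, which hepatocytes and macrophages make, had 14 of 20 tested above 0 and 6 below, with a median of 0.14 (0.15 without replicate 2). C4b, a central component of the classical pathway, had 653, 681 and 622 counts in dICB + Dexa 10 mg and 475, 430.02 and 299 in isotype, with no overlap (0.70 ± 0.26, and 0.65 without replicate 2). The C1 inhibitor Serping1 had 1221, 1644 and 989 counts in dICB + Dexa 10 mg and 1167, 622 and 704 in isotype (0.63 ± 0.27, and 0.39 without replicate 2). C2, which forms the convertase with C4, had 713, 1138 and 765 counts in dICB + Dexa 10 mg and 648, 669 and 586 in isotype (0.46 ± 0.20, and 0.20 without replicate 2). These were the 3 with an unadjusted p under 0.05 (15%, against 8.35% of all genes), of which C4b alone stayed without replicate 2.

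Markers of liver and other tissue cells were checked next. Of 23 genes of hepatocyte secretion on the panel, 9 were above background in none of the 6 samples, among them Crp, Hamp, C9 and Mbl2, which healthy hepatocytes make in quantity. Another 9 were above background in all 6 samples. The summed level of the 14 tested was 29848 to 31911 in the dICB + Dexa 10 mg samples and 23517 to 34266 in isotype. Epcam, an adhesion protein of epithelial and biliary cells, had 174, 186 and 202 counts in dICB + Dexa 10 mg and 187, 248 and 241 in isotype, a log2 fold change of -0.26 ± 0.22 that was -0.28 without replicate 2 and 0.013 with housekeeping gene factors. Cfd, adipsin of fat cells, was high in single samples, with 30.3, 18.6 and 1510.1 counts in dICB + Dexa 10 mg and 25.3, 226 and 37 in isotype. Its log2 fold change of 2.44 ± 1.60 was -1.96 without replicate 3 and 2.96 without replicate 2.

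Endothelial genes, 15 tested, had 2 above 0 and 13 below, with a median of -0.19 (-0.07 without replicate 2; 0.02 and 0.08 with housekeeping and positive control factors). Mcam, an adhesion protein of endothelium and pericytes, was the 1 with an unadjusted p under 0.05 in both fits, with 301, 318 and 408 counts in dICB + Dexa 10 mg and 739.5, 406 and 479.8 in isotype. The groups overlapped only where replicate 3 and isotype replicate 2 were nearly equal, and the log2 fold change was -0.66 ± 0.23, -0.64 without replicate 2 and -0.37 without isotype replicate 1. The vascular growth factor receptor Kdr had 37.6, 27 and 54.9 counts in dICB + Dexa 10 mg and 61.9, 54.5 and 57.2 in isotype (-0.54 ± 0.29, and -0.35 without replicate 2).

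Housekeeping genes, 20 on the panel, had 3 above 0 and 17 below, with a median of -0.32 (-0.20 without replicate 2) that was -0.03 with positive control factors. Alas1, the first enzyme of haem synthesis and strongly expressed in liver, was the 1 with an unadjusted p under 0.05 (5%, against 8.35% of all genes), and none was without replicate 2. It had 317, 336 and 229.9 counts in dICB + Dexa 10 mg and 178, 198 and 151 in isotype, which did not overlap (0.74 ± 0.27, and 0.62 without replicate 2).

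Genes that respond to glucocorticoids were looked at because of Dexa. Tsc22d3, Fkbp5, Per1, Dusp1, Zbtb16, Sgk1, Klf9, Ddit4 and Cebpd, also on the list of induced genes, had no probe under these names. The values below thus cover only part of that list. Of 20 tested genes known to be induced, 19 were above 0 and 1 below, with a median of 0.19, but only Marco had an unadjusted p under 0.05 (5%, against 8.35% of all genes). Without replicate 2 it was 12 above and 8 below, with a median of 0.06 and none under 0.05. The list's mean log2 level, each gene centred on its mean of all 12 samples, was -0.16, 0.08 and -0.16 in dICB + Dexa 10 mg. That level was -0.30, -0.28 and -0.43 in isotype, and 1.05, 0.06 and -0.11 in dICB alone, which had no Dexa. Marco, Cd163 and Cd14 are also counted among the macrophage genes. Anxa1, the anti-inflammatory annexin, had 725, 1292 and 805 counts in dICB + Dexa 10 mg and 859, 802 and 808 in isotype (0.19 ± 0.23, and -0.13 without replicate 2). Cebpb, a transcription factor of the acute phase, had 813, 1409 and 796 counts in dICB + Dexa 10 mg and 693, 840.1 and 818 in isotype (0.36 ± 0.30, and 0.02 without replicate 2). In both genes replicate 2 was the highest of the 6 samples and replicates 1 and 3 lay in or near the isotype range. Mertk, the receptor by which macrophages engulf dying cells, had 0.37 ± 0.29 (0.49 without replicate 2), Hif1a, the oxygen-responsive factor, 0.15 ± 0.21 (0.29), and Socs1, a brake on cytokine signalling, 0.20 ± 0.24 (0.30). Of 17 tested inflammatory genes known to be repressed, 11 were above 0 and 6 below, with a median of 0.08 (0.07 without replicate 2). The 2 with an unadjusted p under 0.05, in both fits, were Nos2 on the higher and Mmp9 on the lower side.

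**Figure D2:**
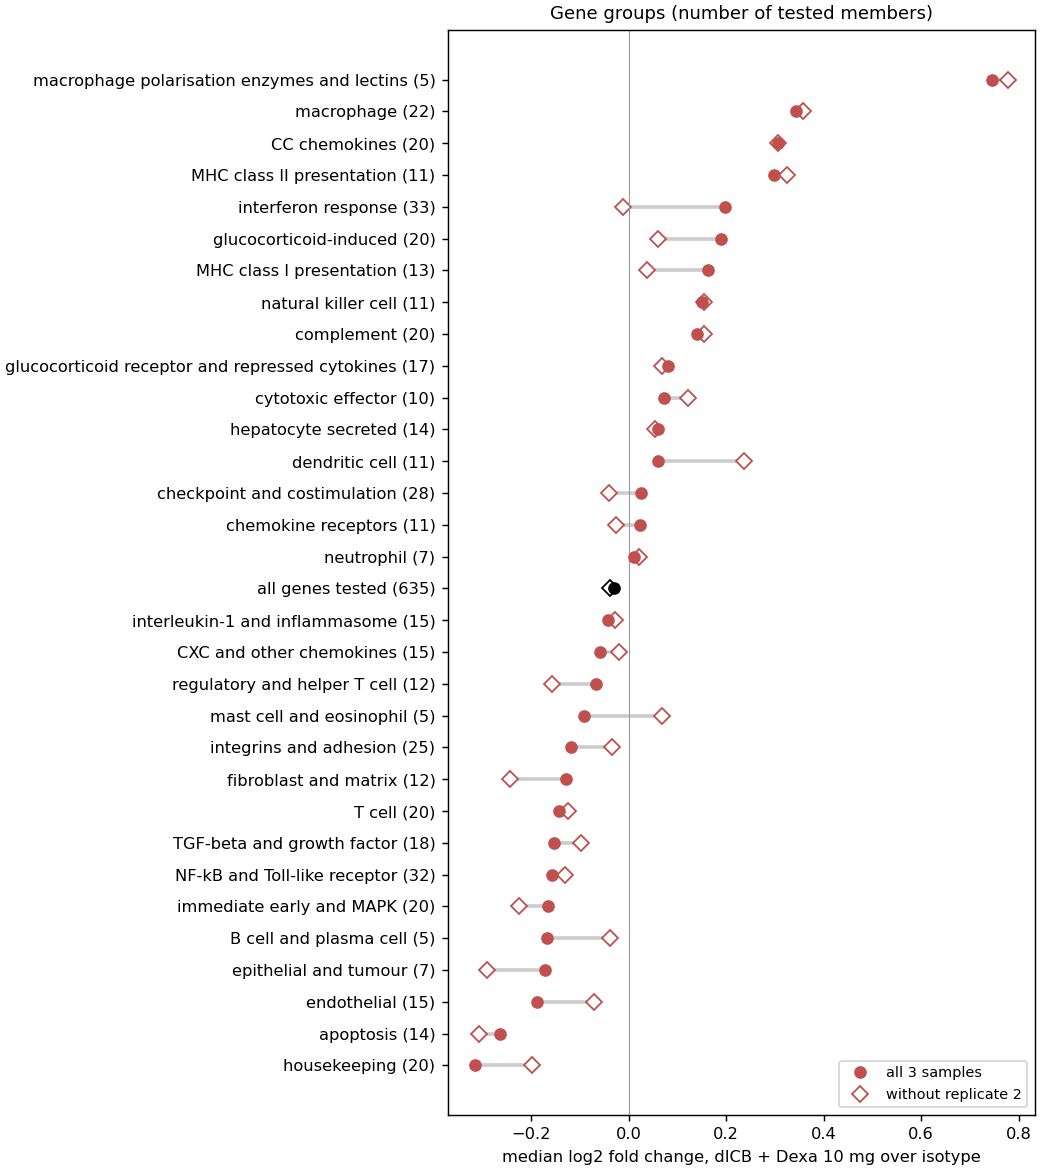
Median log2 fold change of dICB + Dexa 10 mg over isotype for each gene group with at least 5 tested members, with all 3 samples (filled) and without replicate 2 (open), and for all 635 genes in black. Polarisation, macrophage, CC chemokine and MHC class II genes keep their place, while the interferon response moves to -0.01 without replicate 2 from 0.20 with it.

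The 10 genes whose fold change moved most when replicate 2 was left out were all high in it, although it lay more than 2-fold below both other treated samples in 48 genes, such as Fcgr3, Tcf7, Ctss and Cd8a above, and more than 2-fold above them in 19. Mif, macrophage migration inhibitory factor, had 1882, 5408 and 2039.5 counts in dICB + Dexa 10 mg and 1870.3, 2253 and 2258 in isotype, and its log2 fold change of 0.55 ± 0.33 was -0.14 without replicate 2. Cd99, an adhesion protein of leukocytes and endothelium, had 394, 1441 and 399 counts in dICB + Dexa 10 mg and 641, 438 and 466 in isotype, with 0.53 ± 0.42 and -0.40. In both, replicates 1 and 3 were close to or below isotype and replicate 2 stood far above. The interferon-induced genes Ifit3 and Isg15 had 634 and 296 counts in replicate 2, and their log2 fold changes of 0.55 ± 0.48 and 0.70 ± 0.39 were -0.28 and 0.01 without it.

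Xaf1, another interferon-induced gene, had 945 counts in replicate 2 (0.51 ± 0.30, and -0.05 without it). The immediate early factor Fos had 122, 287 and 107 counts in dICB + Dexa 10 mg and 100.4, 99.6 and 106 in isotype (0.75 ± 0.41, and 0.14 without replicate 2). Thbs1, the matrix protein thrombospondin-1, had 1022, 2826 and 1393 counts in dICB + Dexa 10 mg and 1644, 1608 and 1541 in isotype (0.13 ± 0.38, and -0.43 without replicate 2). Over all 635 genes, 507 (79.8%) kept the sign of their log2 fold change without replicate 2, and 128 (20.2%) did not. Of the 24 non-overlapping genes of smallest p, 16 stayed at an unadjusted p under 0.05, where 36 (5.67%) of all genes were. The 24 were chosen on samples that both fits share, so this describes them and tests nothing.

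**Figure D3:**
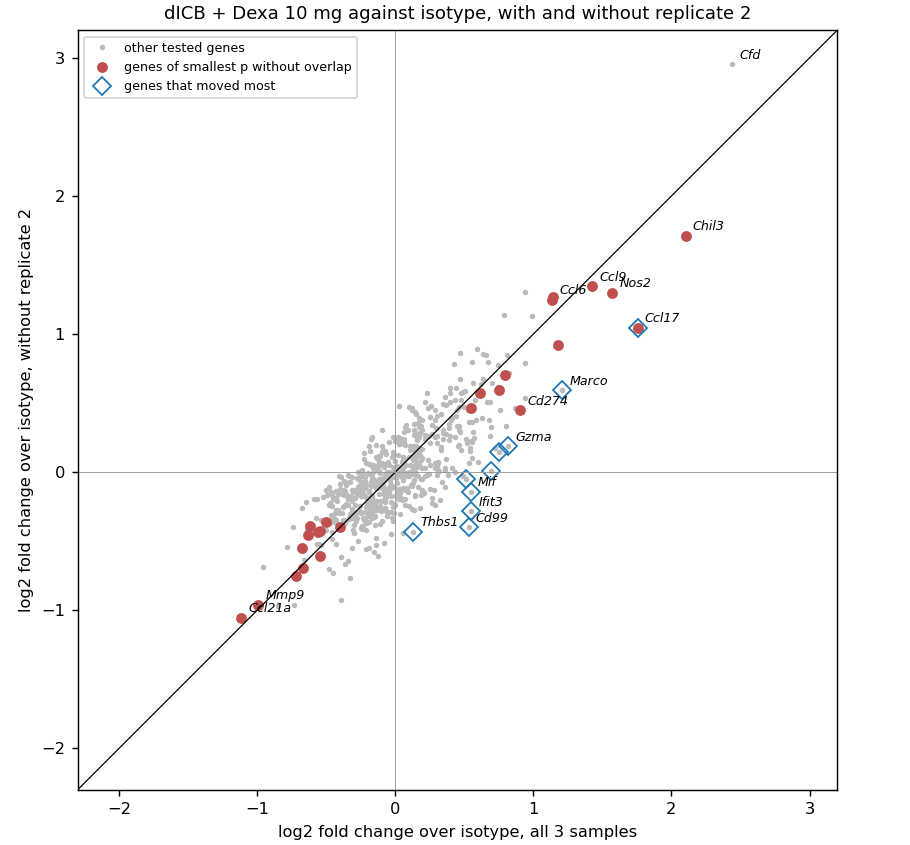
Log2 fold change of dICB + Dexa 10 mg over isotype for 635 genes, with all 3 samples on the x axis and without replicate 2 on the y axis; the line marks equal values, red points the 24 genes of smallest p without overlap and blue diamonds the 10 genes that moved most. Ccl9, Ccl6 and Mmp9 lie near the line, Ccl17, Marco and Cd274 below it, and Mif, Ifit3 and Cd99 change sign.

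**Figure D4:**
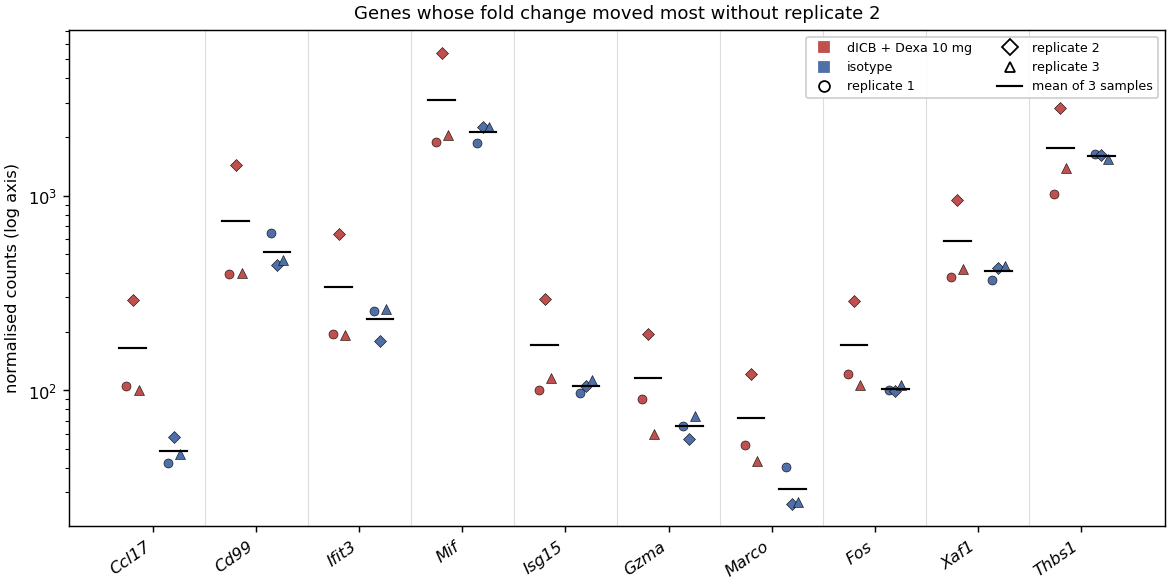
Normalised counts on a log axis of the 10 genes whose log2 fold change moved most without replicate 2, with dICB + Dexa 10 mg (red) left of isotype (blue), symbols for replicates and lines for means of 3. Replicate 2 (diamond) is the highest treated sample in all 10, for Mif at 5408 counts.

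The levels in dICB alone place these values. For Nos2, dICB + Dexa 10 mg had 185 ± 67.1 counts (mean ± SD, n = 3 here and below) and dICB alone 268 ± 119.5, a log2 fold change of -0.54 ± 0.36 (-0.10 without dICB replicate 1, which stands apart in inflammatory genes). Chil3 had 173 ± 77.1 counts in dICB + Dexa 10 mg and 223 ± 158 in dICB (-0.38 ± 0.56, and 0.35 without dICB replicate 1). Both genes thus overlapped widely between these groups. The comparison shares the dICB + Dexa 10 mg samples with that against isotype. No gene passed it either; 60 genes (9.45%) had an unadjusted p under 0.05, and 25 (3.94%) without dICB replicate 1.

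Of the 24 non-overlapping genes of smallest p, 3 had an unadjusted p under 0.05 against dICB: Ccl17, Mmp9 and Ccl21a. Ccl17 had 105, 291 and 100.1 counts in dICB + Dexa 10 mg and 54.4, 93.7 and 67 in dICB (1.2 ± 0.44, and 0.52 without replicate 2 of the Dexa group). Mmp9 had 63.3, 54 and 58.3 counts in dICB + Dexa 10 mg and 156, 74.1 and 112 in dICB (-0.96 ± 0.29, and -0.61 without dICB replicate 1). Ccl21a had 22.9, 17.7 and 20 counts in dICB + Dexa 10 mg and 26.7, 45.6 and 78.9 in dICB (-1.28 ± 0.40, and -1.54 without dICB replicate 1). For all 3 the groups did not overlap, and the smallest adjusted p among the 24 was 0.402. Marco and Clec7a, higher than in isotype, were at lower values than in dICB, with log2 fold changes of -1.0 ± 0.47 and -0.49 ± 0.26. The code also differs here, since all dICB samples carry ICI10 and 2 of the 3 Dexa 10 mg samples ICI7.

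The dose of Dexa at 200 mg gives a further reference. The genes shown were picked for their values in the Dexa 10 mg samples, and an order by dose was not tested. The code differs here too, since Dexa 200 mg replicates 1 and 2 carry ICI10 and replicate 3 ICI7. For Ccl17 the Dexa 10 mg mean is raised by replicate 2, far the highest of its group. Along dICB, Dexa 10 mg and Dexa 200 mg, Ccl17 averaged 71.7 ± 20.1, 166 ± 109 and 260.3 ± 125 counts, against 49 ± 7.90 in isotype. Ccl22 averaged 69.9 ± 28, 91.8 ± 28.7 and 123 ± 13.8, against 40.6 ± 6.71 in isotype. Mmp9 averaged 114 ± 41, 58.5 ± 4.64 and 45.7 ± 15.2, against 117 ± 15.1 in isotype. Ccl9 averaged 1043 ± 552, 1118 ± 240.1 and 1747 ± 219, against 415 ± 152 in isotype, and the samples of dICB and Dexa 10 mg overlapped. Cd274 averaged 1681 ± 211, 1397 ± 646 and 1377 ± 282, against 747 ± 23 in isotype.

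**Figure D5:**
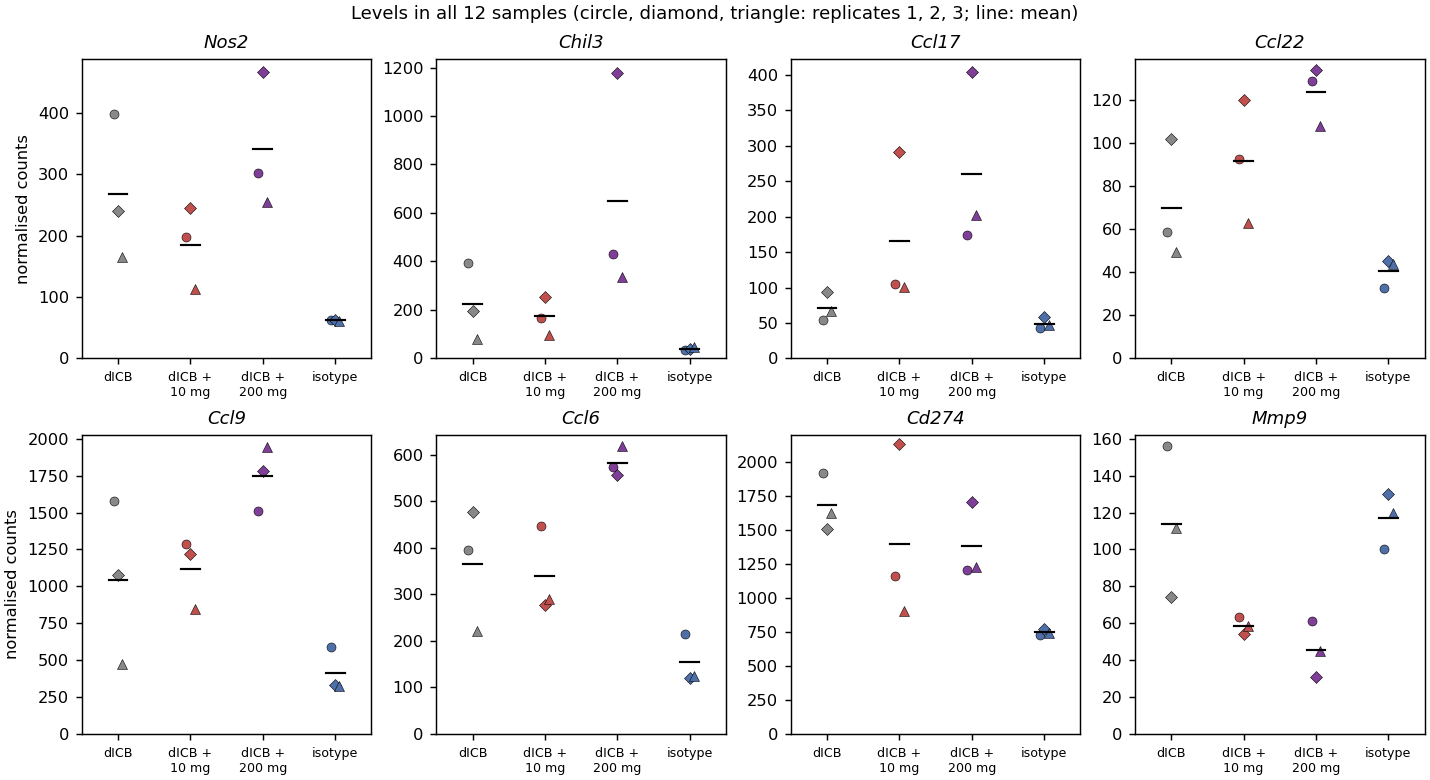
Normalised counts (linear axes) of 8 genes in all 12 samples, in the order dICB, dICB + Dexa 10 mg, dICB + Dexa 200 mg and isotype, with symbols for replicates and lines for means of 3. Every Dexa 10 mg sample lies outside the isotype samples for each of the 8 genes, which was fixed by their choice among genes without overlap. For Mmp9 every Dexa 10 mg sample also lies below every dICB sample (54.0 to 63.3 in Dexa 10 mg, 74.1 to 156 in dICB).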

How the data were processed

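RNA was extracted from fixed tumour tissue with a kit for such material, per the labels' protocols, and 784 probes were counted: 770 genes, 6 positive and 8 negative controls. The deposited values were raw whole-number counts per probe, with instrument and software not given in the sources used here. Of the gene names, 754 were current symbols, 8 synonyms and 8 unmatched in the GRCm38.p6 table.

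Genes averaging 20 or more counts in the 12 samples were tested (635; 135 were not) with edgeR 4.0.16 in R 4.3.3: TMM scaling and one quasi-likelihood fit with a mean per group over all 12 samples (8 residual degrees of freedom), two-sided, Benjamini-Hochberg adjusted over 635 genes at 0.05. Normalised counts were scaled to the mean effective library of 357620. Each standard error is the absolute log2 fold change divided by the root of F, an approximation. Groups of 3 samples limit the precision. Adjusted p-values are edgeR's unless DESeq2 1.42.0 or limma 3.58.1 is named. Alternatives were DESeq2, housekeeping gene and positive control factors, other filters on low counts, a fit of the 6 samples alone, the replicate number or the sample code as a term, robust moderation, limma after background subtraction, and leaving out each sample.

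Samples, comparisons and gene lists were chosen with earlier results of these data known. Named were the 12 higher and 12 lower non-overlapping genes of smallest p, the 6 and 6 of smallest p without replicate 2, the 10 that moved most without it, up to 3 per gene list, and the antibody targets; some of the last 3 kinds were left out for length, and a few genes are not reported here. Arg1, Cd84, Gbp5, Cybb, Fcgr2b, Fcgr3, Lyz2, Emr1 and Cd8a were chosen after their values were seen. The same replicate numbers recur in each group. The deviations of same-numbered samples correlated at 0.223, -0.243 and 0.0532, and those of differently numbered samples at -0.386 to 0.449. With 3 samples a group this cannot show whether the numbers pair samples, and the samples were fitted as unpaired.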

Additional observations from a re-analysis of the deposited data

How the results depend on the processing

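Of the 19 alternatives to the fit, 18 passed no gene and DESeq2 passed 4. Genes with an unadjusted p under 0.05 numbered 53 in the fit, 49 with DESeq2, 43 with limma after background subtraction, 39 with the sample code as a covariate, and 24 to 99 when each replicate was left out in turn (29 without isotype replicate 2, 24 without isotype replicate 3, 99 without dICB + Dexa 10 mg replicate 3). Genes without overlap numbered 83, and 111 to 227 with a replicate left out (191 without replicate 2, 182 without replicate 3, 227 without isotype replicate 1), where fewer samples make separation easier. Non-overlapping genes split into 76 higher and 9 lower with housekeeping gene factors and 114 and 2 with positive control factors, against 51 and 32. Because it is not known whether the replicate numbers pair the samples, the fit with a replicate block is given only here. It passed 0 genes and left 50 at an unadjusted p under 0.05. Its smallest adjusted p in edgeR was 0.0856, for Ccl17. The named non-overlapping genes of smallest p kept their direction in each alternative, which their selection for no overlap largely fixed in advance. Genes near 0 or carried by 1 sample did not, and the cause was not tested. Without replicate 2 (in the 12-sample design, with the 5 remaining samples alone, and with DESeq2) Cd99 was at -0.40, -0.38 and -0.37, Ifit3 at -0.28, -0.27 and -0.25, Mif at -0.14, -0.12 and -0.12, Xaf1 at -0.053, -0.035 and -0.026, Thbs1 at -0.43, -0.41 and -0.40, Anxa1 at -0.13, -0.11 and -0.10, and Cd8a at 0.10, 0.11 and 0.13. With the code as a covariate Thbs1 was at -0.21, Anxa1 at -0.053 and Cd8a at 0.0030. With housekeeping and positive control factors Pdcd1 was at 0.24 and 0.22 and Epcam at 0.013 and 0.034, and Cd8a at 0.041 with the positive controls. Pdcd1 was also at 0.0064 in the fit of 6 samples and 0.0064 without dICB replicate 1. Fcgr3 was at -0.068 with the replicate block and -1.37 after background subtraction. With each replicate left out, Pdcd1 ran from -0.45 to 0.21, Cd99 from -0.40 to 0.89, Ifit3 from -0.28 to 0.88, Mif from -0.14 to 0.85, Xaf1 from -0.053 to 0.78, Thbs1 from -0.43 to 0.44, Anxa1 from -0.13 to 0.38, Cd8a from -0.47 to 0.10, Fcgr3 from -0.38 to 0.48 and Cfd from -1.96 to 4.06. Against dICB, Chil3 was at 0.35 without dICB replicate 1 and ran from -0.75 to 0.35 over the replicates left out. Without the filter or with a mean of at least 50 counts no named gene that was tested changed direction.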

Other observations

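Of 12 fibroblast and matrix genes tested, 5 were above 0 in dICB + Dexa 10 mg over isotype and 7 below (2 and 10 without replicate 2), with a median log2 fold change of -0.13 (-0.24 without replicate 2, and 0.13 and 0.11 with housekeeping and positive control factors). Only Ccl11, which fibroblasts and smooth muscle also make, had an unadjusted p under 0.05 there, in both fits. Of 7 epithelial and tumour genes, 2 were above 0 and 5 below, and without replicate 2 all 7 were below, with a median of -0.29 that was -0.17 with all samples and 0.09 with housekeeping gene factors. Of 18 TGF-beta and growth factor genes, 4 were above 0 and 14 below, with a median of -0.15 (-0.10 without replicate 2, and 0.10 and 0.12 with housekeeping and positive control factors), and none had an unadjusted p under 0.05 in either fit. The 25 integrin and adhesion genes had a median of -0.12 (-0.03 without replicate 2, and 0.12 and 0.16 under the same scalings). At an unadjusted p under 0.05 were Itgax and Itgb2 on the higher and Mcam on the lower side (12%, against 8.35% of all genes), and without replicate 2 only Mcam.

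Of 20 immediate early and MAPK genes, 5 were above 0 and 15 below, with a median of -0.17 (-0.23 without replicate 2, and 0.10 and 0.11 with housekeeping and positive control factors). Egr2, a transcription factor of activated T cells and macrophages, was the 1 with an unadjusted p under 0.05 (5%, against 8.35% of all genes), and none was without replicate 2. It had 56.9, 53.1 and 41.8 normalised counts in dICB + Dexa 10 mg and 31, 28.3 and 42.6 in isotype, overlapping at replicate 3 (0.58 ± 0.22, and 0.52 without replicate 2). Of 15 interleukin-1 and inflammasome genes, 5 were above 0 and 10 below, and Il18 was the 1 with an unadjusted p under 0.05, which it was not without replicate 2. The summed level of the neutrophil genes was 375 to 763 in the dICB + Dexa 10 mg samples and 352 to 632 in isotype, and 6 of their 12 genes on the panel, Mpo and Elane among them, were above background in none of the 6 samples.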
